A study of Mus musculus with 8 samples.

Results

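Ketone bodies are small fuels made from fatty acids when glucose is scarce. Acetoacetate and beta-hydroxybutyrate leave the cell that makes them through monocarboxylate transporters, are turned back into acetyl-CoA in the mitochondria of other cells, and also act as signals. The loci of 6 genes of this pathway were examined in mouse small intestinal crypts, the pits of the gut lining that hold its stem cells. Bdh1 encodes the mitochondrial enzyme that interconverts acetoacetate and beta-hydroxybutyrate, and Bdh2 a cytosolic dehydrogenase of the same family. Acat1 encodes the mitochondrial acetoacetyl-CoA thiolase, which acts in both synthesis and use. Oxct1 encodes the CoA transferase that commits acetoacetate to use as fuel. Slc16a1 encodes MCT1, a transporter of lactate, ketone bodies and butyrate. Hcar2 encodes a cell-surface receptor for beta-hydroxybutyrate, butyrate and niacin. The members were named by pathway, and all 6 were found among 21887 protein-coding genes of the RefSeq table for GRCm38.

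The marks were H3K27ac, found at active enhancers and promoters, and H3K9ac, found mainly at active promoters. They were mapped by CUT&Tag, in which an antibody guides a transposase that cuts and tags the chromatin around the mark. The mice were male C57BL/6J animals, 9 weeks old, and each mark had 4 groups: Fed (-Tetra), Fast (-Tetra), Fed (+Tetra) and Fast (+Tetra). Fast mice went without food for 24 h and +Tetra mice had received tetracycline for 21 days. Crypts were shaken off the gut wall in EDTA and digested with trypsin to single cells. Each group was 1 sample with 2 peak lists, numbered 1 and 2, so each mark had 8 lists and the spread is that between lists. The labels do not say whether the lists of a sample came from different mice, and p-values measure only the spread between lists. The cells were a mixture, so more cells of a type and more mark per cell cannot be told apart.

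H3K27ac lists held 32392 to 68545 peaks, covering 33.1 to 64.2 Mb, and H3K9ac lists 17249 to 99050 peaks, covering 16.5 to 47.3 Mb. Fast lists tended to be longer: H3K27ac peaks covered 33.1 to 56.0 Mb in Fed and 48.2 to 64.2 Mb in Fast lists. Peaks of exactly 200 bp made up 1.32% to 31.2% of the Fast H3K9ac lists and at most 1.73% of the Fed ones. Read depth is unknown. Of 10 markers of gut epithelium, 8 to 9 had H3K27ac within 1 kb of a gene end in Fed lists and 9 to 10 in Fast lists. Of 5 stromal, muscle and endothelial markers at most 1 was marked in an H3K27ac list, and none of 3 neural markers. In H3K9ac lists, 7 to 9 epithelial markers were marked in Fed and 9 to 10 in Fast. Stromal, muscle and endothelial markers with H3K9ac numbered 0 to 1 in Fed and 0 to 2 in Fast lists, and neural ones 0 to 1 in either. The crypt stem cell marker Olfm4 had H3K27ac in all 4 Fast lists and 1 Fed list. Lgr5, the other stem cell marker among the 10, had it in 1 Fast list and no Fed list. Of 4 immune markers, 1 to 2 were marked in Fed and 2 to 3 in Fast H3K27ac lists, and 0 to 1 in the H3K9ac lists of either state.

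A gene was called marked where a peak lay within 1 kb of either end of its RefSeq span. Slc16a1 was marked in all 8 lists of both marks. Bdh1, Acat1 and Oxct1 were marked in all 8 H3K27ac lists, as were 33.6% of all genes. Bdh2 had H3K27ac at neither end in any list, as did 39.4% of genes. In the full lists, Hcar2 alone of the 6 separated the feeding states, with H3K27ac in all 4 Fast lists and no Fed list. That class held 0.0959% of genes, while 0.0137% had the reverse. For H3K9ac, Oxct1 was marked in 7 lists (3 Fast, 4 Fed), Acat1 in 6 (3 of each), Bdh1 and Bdh2 in 1 Fast list each and Hcar2 in none. All 8 H3K9ac lists marked 21.1% of genes and none marked 25.2%. No member had H3K9ac at an end in all lists of one feeding state alone, a class with 0.0777% of genes for Fast and 0.0411% for Fed.

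The RefSeq promoter table, which gives 250 bases before and 50 after a start, held 5 starts of 4 members, all on the plus strand. Acat1 and Hcar2 had no entry. These sequences are shown because the 2 starts of Bdh1, and those of Bdh2 and the others, differed in whether the crypts carried the marks there. Each is written 5′ to 3′, and capitals mark matches to the motifs searched.
Bdh1, first start, chr16:31422047-31422346: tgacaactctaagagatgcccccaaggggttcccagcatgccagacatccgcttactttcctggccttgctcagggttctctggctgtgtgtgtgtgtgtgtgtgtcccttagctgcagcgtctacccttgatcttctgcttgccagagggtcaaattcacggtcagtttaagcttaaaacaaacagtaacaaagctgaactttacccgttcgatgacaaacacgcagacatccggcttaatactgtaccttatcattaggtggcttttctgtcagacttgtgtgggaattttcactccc
Bdh1, second start, chr16:31428503-31428802: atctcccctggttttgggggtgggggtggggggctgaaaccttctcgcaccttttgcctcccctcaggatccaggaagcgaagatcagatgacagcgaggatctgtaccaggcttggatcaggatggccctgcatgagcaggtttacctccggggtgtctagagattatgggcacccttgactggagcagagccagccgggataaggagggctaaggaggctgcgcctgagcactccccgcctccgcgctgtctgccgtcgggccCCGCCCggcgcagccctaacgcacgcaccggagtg
Bdh2, chr3:135280971-135281270: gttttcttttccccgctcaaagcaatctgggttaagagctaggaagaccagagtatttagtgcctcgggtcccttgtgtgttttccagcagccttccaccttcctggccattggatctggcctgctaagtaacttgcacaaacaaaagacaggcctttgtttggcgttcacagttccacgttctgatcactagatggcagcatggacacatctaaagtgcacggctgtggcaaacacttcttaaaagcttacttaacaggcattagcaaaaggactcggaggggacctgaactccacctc
Oxct1, chr15:4026178-4026477: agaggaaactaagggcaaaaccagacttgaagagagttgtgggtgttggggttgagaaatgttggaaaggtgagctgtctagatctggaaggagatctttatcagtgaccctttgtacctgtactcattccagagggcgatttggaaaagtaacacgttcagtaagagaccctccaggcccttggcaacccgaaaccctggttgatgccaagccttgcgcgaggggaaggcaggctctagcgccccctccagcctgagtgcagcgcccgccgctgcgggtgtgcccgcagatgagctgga
Slc16a1, chr3:104638414-104638713: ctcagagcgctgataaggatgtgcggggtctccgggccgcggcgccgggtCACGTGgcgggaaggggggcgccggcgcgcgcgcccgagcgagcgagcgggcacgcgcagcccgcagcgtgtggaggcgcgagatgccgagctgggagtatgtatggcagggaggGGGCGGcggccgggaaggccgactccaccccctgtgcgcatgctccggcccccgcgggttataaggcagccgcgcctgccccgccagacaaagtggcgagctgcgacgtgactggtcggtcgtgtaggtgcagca
The build is GRCm38.p6 and the sequences are RefSeq's. The Slc16a1 promoter held 42 CpG dinucleotides, an observed-to-expected ratio of 1.06 that exceeded 96.8% of the 32851 promoters in the table. The second Bdh1 start held 17 (ratio 0.56), Oxct1 11 (0.49), the first Bdh1 start 7 (0.40) and Bdh2 6 (0.34). Over all promoters with a ratio of 0.6 or more, 50.4% overlapped an H3K27ac peak in all 8 lists, against 8.32% of those below it. For H3K9ac these shares were 29.2% and 2.89%. Slc16a1 had both marks over these bases in all 8 lists, Oxct1 had H3K27ac in 8 and H3K9ac in 6, and Bdh2 had H3K27ac in 0 and H3K9ac in 1.

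Motifs, chosen after the sequences were seen, were searched on both strands. The E-box CACGTG was found once, in Slc16a1, and in 7.15% of all promoters. The GC box GGGCGG was found in Slc16a1 and, on the minus strand, at the second Bdh1 start, and in 35.7% of all promoters. The TATA box TATAAA, the cAMP response element TGACGTCA, the FoxO core GTAAACA, the palindromic NRF1 site and a direct repeat of AGGTCA with 1 base between, a form bound by PPAR and HNF4 receptors, were in none of the 5. They were in 13.6%, 1.79%, 3.65%, 0.97% and 0.040% of all promoters.

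Hcar2 (chromosome 5, 123863570 to 123865516) is 1947 bp long. Its strand and start are not in the sources used here, so which end of Hcar2 is the start is not stated. The H3K27ac region at its lower-coordinate end spanned 123862329 to 123863591. It covered 1020 and 819 bp in Fast (-Tetra) lists 1 and 2 and 1187 and 723 bp in Fast (+Tetra) lists. All 4 Fed lists had no peak there. The feeding states did not overlap, in either tetracycline state. This pattern was already known when the gene was chosen and is a description with no test. None of the 8 H3K9ac lists had a peak at this region. By score, its peaks ranked at a median percentile of 54.3 within their lists.

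Ptprc, which encodes the pan-leukocyte protein CD45, also had H3K27ac at a gene end in all 4 Fast and no Fed list. Hcar2 is known to be expressed in myeloid cells as well as in epithelium. The myeloid marker Itgam was marked in 4 Fast and 2 Fed H3K27ac lists and the T cell marker Cd3e in 2 Fast and 4 Fed lists. The macrophage gene Csf1r was marked in no H3K27ac list. The part of immune cells in the Hcar2 result was not tested.

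**Figure D1:**
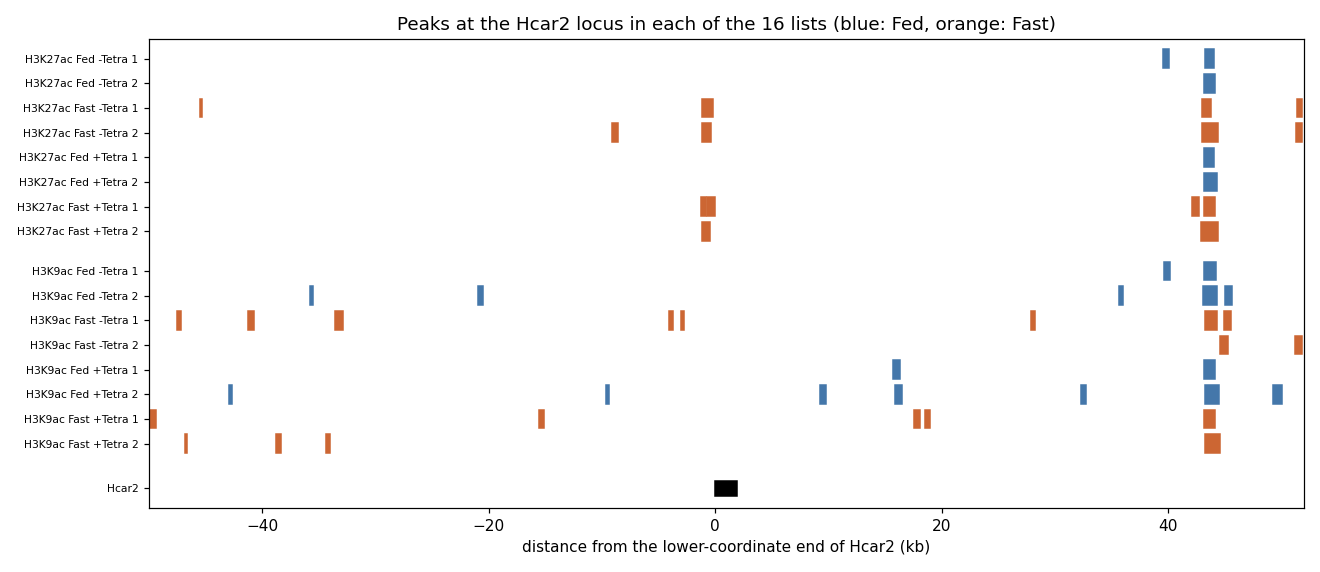
Peaks at the Hcar2 locus, by distance in kb from its lower-coordinate end, with 1 row per peak list (Fed blue, Fast orange) and the gene in black. The peak beside the gene is present in the 4 Fast H3K27ac lists and in no Fed list, while the peak near 43.7 kb lies at Denr and is in all 8 H3K27ac lists.

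Within 50 kb on each side of Hcar2, the only H3K27ac region held by all 8 lists lay at an end of Denr, a translation factor gene (123906466 to 123907997). The length covered by H3K27ac peaks in the whole window was 1418 and 960 bp in Fed (-Tetra), 2412 and 3337 bp in Fast (-Tetra), 829 and 1188 bp in Fed (+Tetra) and 2773 and 2226 bp in Fast (+Tetra). Every Fast list exceeded every Fed list, as was so for 5.29% of all genes, while 0.128% had the reverse. As a share of each list's total covered length, every Fast list of Hcar2 again exceeded every Fed list; on that scale 3.34% of genes had Fast above and 4.98% Fast below. The mean was 1099 ± 259 bp in Fed and 2687 ± 489 bp in Fast (SD, n = 4 lists each), a difference of 1588 bp. The window includes the peaks at the gene end, so this too is a description with no test. The difference was 1685.5 bp without and 1491 bp with tetracycline, and 1469 bp over lists 1 and 1707.5 bp over lists 2. Per Mb that each list covered in all, it was 24.0 bp. It was 1012.5 bp when all lists were limited to their 32392 highest-scoring peaks and 456 bp with the upper 0.5 of each list by score, where 3 Fast lists kept the peak at the gene. In the flanks alone, Fed lists ran from 829 to 1418 bp and Fast lists from 1392 to 2518 bp and overlapped, so without the gene end the states were not apart. A second region confined to Fast lists, within Denr (123914865 to 123915414), was in both Fast (-Tetra) lists and in no other. H3K9ac gave no such separation: the window held 1483 to 4232 bp in Fed and 1270 to 4278 bp in Fast lists. One H3K9ac region, at an end of Hcar1 (123879298 to 123880032), was in both Fed (+Tetra) lists and in no other.

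Bdh1 (chromosome 16, 31422297 to 31458901) had its most constant mark inside the gene. A region of 31428177 to 31430546, over its second start and also at an end of Gm15743, was held by all 8 lists of both marks. It covered 2106 and 1912 bp of H3K27ac in Fed (-Tetra), 2100 and 2155 bp in Fast (-Tetra), 1891 and 1917 bp in Fed (+Tetra) and 2203 and 2352 bp in Fast (+Tetra). The lists thus lay close together, and the highest Fed list (2106 bp) exceeded the lowest Fast list (2100 bp). The 300 bases of the second start overlapped an H3K27ac peak in 8 and an H3K9ac peak in 7 of 8 lists. Those of the first start did so in 4 H3K27ac lists, 2 Fed and 2 Fast, and in no H3K9ac list. The H3K27ac call at a gene end in every list came from a region beyond the other end of the gene (31459307 to 31460746). That region overlapped an H3K9ac peak in 1 list.

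Across the Bdh1 window, H3K27ac peaks covered 7231 and 10403 bp in Fed (-Tetra) and 12870 and 14662 bp in Fast (-Tetra). With tetracycline they covered 8709 and 11256 bp in Fed and 12835 and 9527 bp in Fast. Without tetracycline both Fast lists exceeded both Fed lists, as for 28.5% of genes (2.59% had the reverse). With it they overlapped, while 15.2% of genes had Fast above and 3.02% Fast below. The difference of 3074 bp did not pass (exact permutation p = 0.11, two-sided; Benjamini-Hochberg adjusted p = 0.74 over all genes). It was 4882.5 bp over lists 1 and 1265 bp over lists 2. The interaction of -3750.5 bp had an exact permutation p of 0.33 (adjusted p = 1). A region upstream at 31399056 to 31399989 had H3K27ac in Fast (-Tetra) list 1, both Fast (+Tetra) lists and no Fed list. Regions at 31402280 to 31403325 and, inside the gene, at 31435059 to 31435694 had it in both Fast (-Tetra) lists and in no other. H3K9ac covered 2154 to 5041 bp in Fed and 3268 to 5746 bp in Fast lists, which overlapped.

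**Figure D2:**
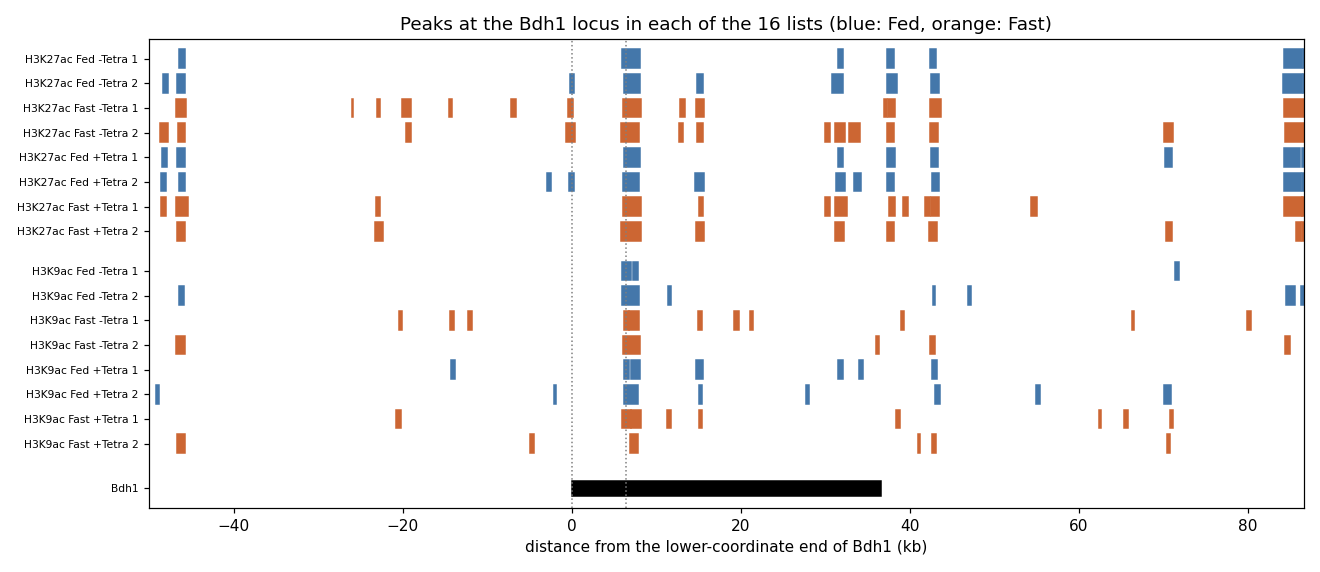
Peaks at the Bdh1 locus, by distance in kb from its lower-coordinate end, in each of the 16 lists; dotted lines mark the 2 RefSeq starts. All 16 lists have a peak over or next to the second start, and 4 H3K27ac lists have one at the first.

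Bdh2 (chromosome 3, 135281221 to 135304426) carried little of either mark. H3K9ac at its start, also at an end of Gm46826, was called in a single list, Fast (-Tetra) 1, over 391 bp. Inside the gene, H3K27ac covered 0 and 603 bp in Fed (-Tetra), 396 and 2034 bp in Fast (-Tetra), 991 and 1793 bp in Fed (+Tetra) and 2000 and 2279 bp in Fast (+Tetra). The Fed and Fast lists overlapped. A region at 135290199 to 135290833 had H3K27ac in 3 Fast lists and no Fed list, as did one within the neighbouring gene Cenpe (135232094 to 135233147). In both, the list without a peak was Fast (-Tetra) 1, the H3K27ac list with the most peaks. The only region of the window held by all 8 lists lay at an end of a neighbour, Slc9b2.

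In the whole Bdh2 window, H3K27ac covered 1440.5 ± 894 bp in Fed and 3013 ± 1293 bp in Fast lists (SD, n = 4 each), which overlapped. All 4 pairs of the same list number were higher in Fast, but the labels do not link Fed and Fast lists of a number. The difference of 1572.5 bp did not pass (exact permutation p = 0.11, adjusted p = 0.74). H3K9ac peaks there covered 614 and 1188 bp in Fed (-Tetra), 391 and 446 bp in Fast (-Tetra), 482 and 0 bp in Fed (+Tetra) and 1856 and 1061 bp in Fast (+Tetra). Both Fast lists were thus below both Fed lists without tetracycline, as for 3.24% of genes (16.1% had Fast above). Both were above them with tetracycline, as for 25% of genes (4.13% had Fast below). The interaction of 1700 bp had an exact permutation p of 0.056, the smallest possible, and an adjusted p of 1. The share of all genes reaching that p is not given here. This interaction had the lowest p of the 12 tested for the members over both marks. When all lists were limited to their 17249 highest-scoring peaks it was 400 bp (exact permutation p = 0.50). No H3K9ac region of this window was held by more than 2 lists.

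**Figure D3:**
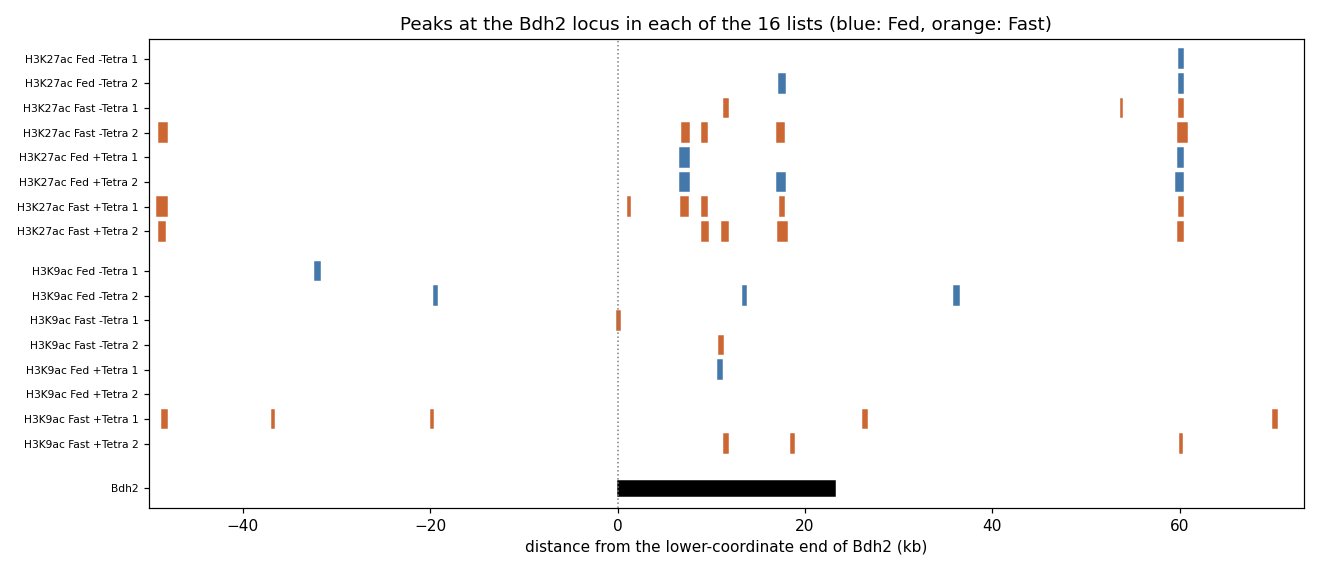
Peaks at the Bdh2 locus, by distance in kb from its start (dotted line), in each of the 16 lists. No H3K27ac list has a peak within 1 kb of either end of the gene, and the H3K9ac peaks rarely fall at the same place in different lists.

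Acat1 (chromosome 9, 53580522 to 53610350) had H3K27ac at its higher-coordinate end (53609734 to 53610736) in every list. The peak covered 578 and 861 bp in Fed (-Tetra), 854 and 848 bp in Fast (-Tetra), 672 and 788 bp in Fed (+Tetra) and 923 and 837 bp in Fast (+Tetra). The Fed and Fast lists overlapped. H3K9ac was called there in both lists of each group without tetracycline and in 1 list of each with it. Over the window, H3K27ac covered 3778 ± 1147 bp in Fed and 4732 ± 697 bp in Fast lists (SD, n = 4 each; exact permutation p = 0.28, adjusted p = 0.92). The highest-ranked region held by all 8 lists lay between Atm and Npat, at ends of both.

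Oxct1 (chromosome 15, 4026428 to 4155344) had H3K27ac at its start (4025952 to 4027888), which is also at an end of BC037032, in every list. It covered 1596 and 1692 bp in Fed (-Tetra), 471 and 1785 bp in Fast (-Tetra), 1612 and 1860 bp in Fed (+Tetra) and 1074 and 1762 bp in Fast (+Tetra). The 2 low values were both Fast lists of number 1. H3K9ac was missing at this start in Fast (-Tetra) list 1 and covered 487 to 1868 bp in the other 7 lists. Inside the gene, a region at 4079419 to 4080443 had H3K27ac in all 8 lists and overlapped no H3K9ac peak. The highest-ranked H3K27ac region of the window (3995136 to 3996804, median percentile 97.0) lay at ends of AW549877 and Gm2093 and was in all 8 lists, as was an H3K9ac region at Fbxo4 (3978833 to 3980202). Oxct1 was the member whose window had less H3K27ac in Fast than in Fed, 7432 ± 938 against 8576 ± 1974 bp (SD, n = 4 lists each), but the lists overlapped (exact permutation p = 0.39, adjusted p = 0.98). Per Mb that each list covered in all, they did not overlap, with 176 to 199 bp in Fed and 131 to 151 bp in Fast lists. On that scale 4.98% of genes had Fast below and 3.34% Fast above. A region at 3999128 to 3999614 had H3K27ac in both Fed (-Tetra) and neither Fast (-Tetra) list, and in 1 list of each feeding state with tetracycline.

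Slc16a1 (chromosome 3, 104638664 to 104658462) was the most heavily marked member. At its start (104637590 to 104639966), H3K27ac covered 1854 and 2293 bp in Fed (-Tetra), 1927 and 2222 bp in Fast (-Tetra), 1910 and 2224 bp in Fed (+Tetra) and 2065 and 1977 bp in Fast (+Tetra). The Fed and Fast lists overlapped. Beyond the other end of the gene lay a run of H3K27ac regions. One of them, at 104672745 to 104676077 and about 35.7 kb from the start, was held by all 8 lists of both marks and covered 2924 to 3333 bp of H3K27ac. Its H3K27ac peaks ranked at a median percentile of 97.6 within their lists. The H3K9ac peaks there did not all overlap one another.

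The whole Slc16a1 window held 20347 ± 4892 bp of H3K27ac in Fed and 21302 ± 3780 bp in Fast lists (SD, n = 4 each), which overlapped (exact permutation p = 0.89, adjusted p = 1). The difference was 2725 bp over lists 1 and -816.5 bp over lists 2. Upstream, a region at 104611546 to 104612640 had H3K27ac in both Fast and neither Fed list without tetracycline, and one at 104608660 to 104609415 the reverse; with tetracycline each was found in both feeding states. H3K9ac covered 4683 and 10620 bp in Fed (-Tetra), 7426 and 7538 bp in Fast (-Tetra), 4455 and 8256 bp in Fed (+Tetra) and 8916 and 8405 bp in Fast (+Tetra). These overlapped as well (exact permutation p = 0.50, adjusted p = 0.88). An H3K9ac region at 104668788 to 104669425 was in both Fed (-Tetra) lists and in no other, and one at 104700792 to 104701552, at the gene Gm24223, was in 3 Fast lists and 1 Fed list.

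**Figure D4:**
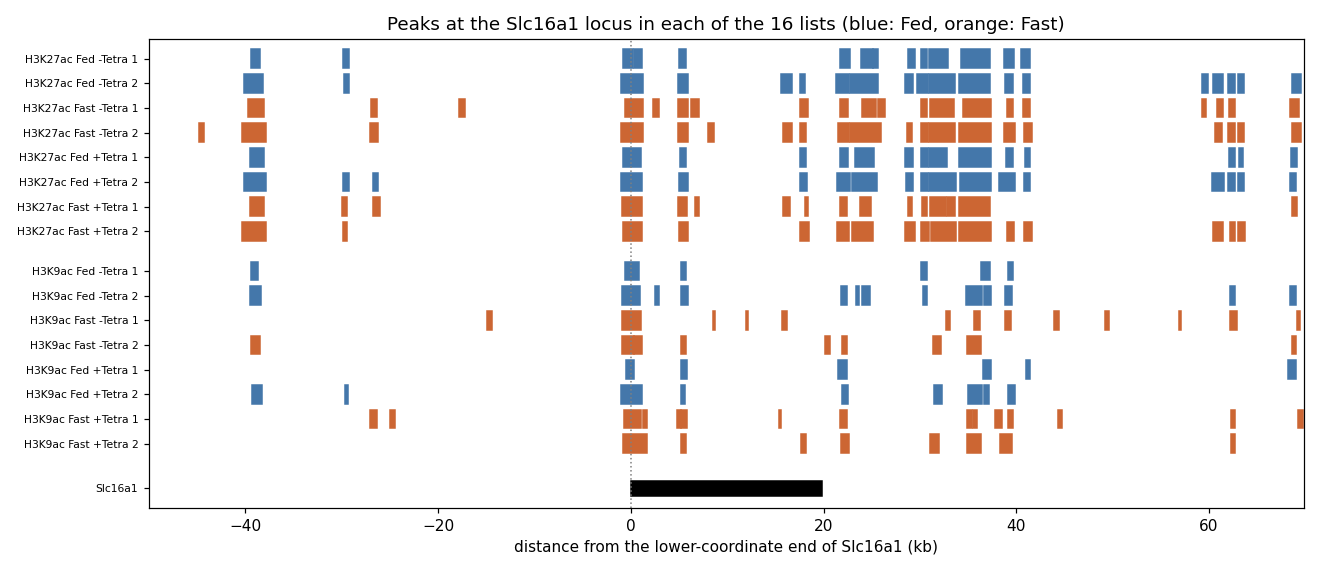
Peaks at the Slc16a1 locus, by distance in kb from its start (dotted line), in each of the 16 lists. All 16 lists have a peak at the start and in the region near 35.7 kb, where the H3K9ac peaks do not all overlap one another. The H3K27ac peaks between 20 and 42 kb form a dense run.

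**Figure D5:**
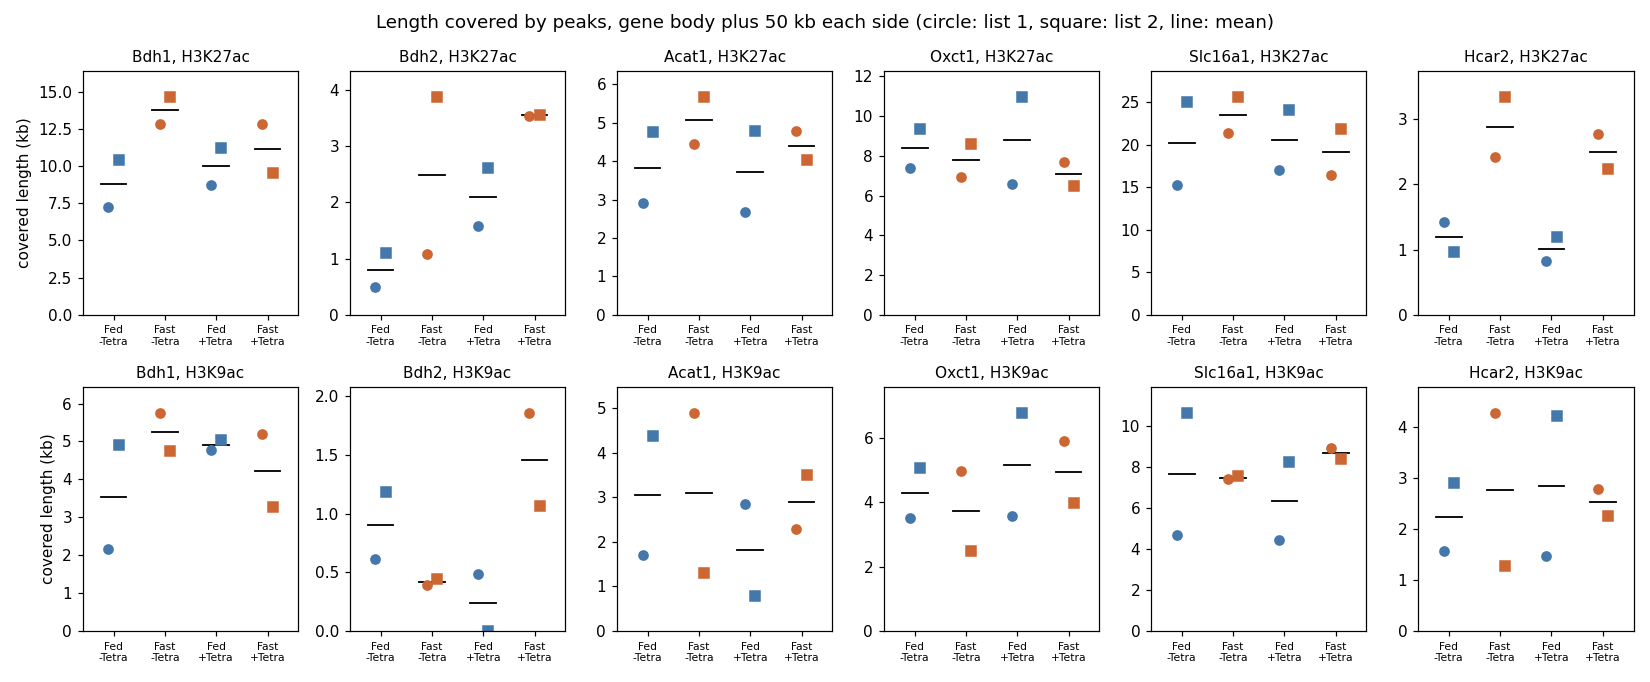
Length in kb covered by peaks in the gene body plus 50 kb on each side, for each member and mark; each point is a peak list (circle list 1, square list 2) and each line the mean of 2 lists. Fed and Fast points are fully apart over both tetracycline states in the Hcar2 panel of H3K27ac and in no other.

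The members were then ordered by the share of their window that peaks covered, as a mean over 8 lists. For H3K27ac, Slc16a1 had 17.4 ± 3.4%, Bdh1 8.01 ± 1.8%, Oxct1 3.50 ± 0.68%, Acat1 3.28 ± 0.78%, Hcar2 1.86 ± 0.91% and Bdh2 1.81 ± 1.1% (SD). The median gene had 2.84%, and Slc16a1 exceeded 96.8% of genes. Slc16a1 was above Bdh1, Bdh1 above Oxct1 and Acat1 above Hcar2 in 8 of 8 lists, while Oxct1 against Acat1 and Hcar2 against Bdh2 each went 4 of 8 ways. For H3K9ac, Slc16a1 (6.29 ± 1.7%) and Bdh1 (3.28 ± 0.86%) again led and Bdh2 (0.61 ± 0.47%) was last. Hcar2, Acat1 and Oxct1 lay between 1.98% and 2.55%, where the neighbours in the order held it in 5 and 4 of 8 lists.

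Over the 6 members, H3K27ac length was higher in Fast in 5 and lower in 1, with a median difference of 1264 bp, beside 431 bp over all genes. The share of all genes higher in Fast is not given here for either mark, so the counts of members lack that background. Per Mb covered in the list, 4 members were higher in H3K27ac and 2 lower, with a median of 10.6 bp beside 0 over all genes. In covered length, Hcar2 was the only 1 of 6 without overlap. All 4 Fast lists exceeded all Fed lists in 5.29% of genes and lay below them in 0.128%. As a share of the list total, Hcar2 (Fast above) and Oxct1 (Fast below) were without overlap, beside 3.34% and 4.98% of genes. For H3K9ac, 5 were higher and 1 lower, with a median of 446 bp beside 480 bp over all genes. Per Mb covered in the list this turned to 1 higher (Bdh2) and 5 lower, with a median of -20.3 bp beside -1.98 bp over all genes. None of the 6 was without overlap, where all 4 Fast lists exceeded all Fed lists in 3.48% of genes and lay below them in 0.251%. As a share of the list total these were 2.35% and 4.6%. No adjusted p passed 0.05 for any gene or either mark, and the design allows no unadjusted p below 0.056. Tetracycline differences ran from -1993 bp (Slc16a1, H3K27ac) to 1183 bp (Bdh2, H3K27ac), with exact permutation p from 0.17 to 0.94 and every adjusted p at 1. With-tetracycline and without-tetracycline lists overlapped for all 6 members in both marks. All 4 lists with tetracycline lay above those without in 0.128% of genes for H3K27ac and in 0.238% for H3K9ac, and below them in 1.22% and 0.142%.

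In all, 82 H3K27ac regions lay in the 6 windows. All 8 lists held 21 of them and a single list 25, against 14.6% and 53.1% of all H3K27ac regions. Of the 21, 19 overlapped an H3K9ac peak in at least 1 list and 4 in all 8. The windows held 149 H3K9ac regions, 4 of them in all 8 lists and 114 in 1 list, against 1.52% and 84.4% of all. For H3K27ac and mice without tetracycline, 5 regions were confined to both Fast lists and 2 to both Fed lists, against 3.1% and 1.2% of all regions. With tetracycline the counts were 4 and 0, against 1.91% and 1.05%. The region at Hcar2 was the only one confined to Fast in both states, as were 0.4% of all regions. For H3K9ac, 0 regions were confined to both Fast and 1 to both Fed lists without tetracycline, against 0.635% and 0.365%, and 1 and 1 with it, against 0.972% and 0.442%.

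Of 20 other genes of ketone body metabolism, transport, sensing and control, 16 had more and 4 less H3K27ac length in Fast, with a median difference of 1512 bp beside 431 bp over all genes. Per Mb covered in the list, 8 were higher and 12 lower. For these counts, and those of H3K9ac below, the share of all genes higher in Fast is likewise not given. In 3 of the 20, all Fast lists exceeded all Fed lists in covered length, as in 5.29% of all genes, and in none did they lie below, as in 0.128%. Hcar1, the lactate receptor gene beside Hcar2, shares 88.8 kb of its window with it, so most of the sequence counted is the same. The shared part includes the H3K27ac region at the end of Hcar2, so Hcar1 adds no separate result. Its window ran from 829 to 1418 bp in Fed and from 2212 to 3337 bp in Fast lists. Ffar2 and Ffar3, neighbouring genes of receptors for short-chain fatty acids, share 69.4 kb and are likewise not separate loci. Ffar2 ran from 697 to 2872 bp in Fed and from 4049 to 8019 bp in Fast lists, and Ffar3 from 318 to 2330 and from 2734 to 6022 bp (exact permutation p = 0.056, the smallest possible and reached by 8.77% of genes; adjusted p = 0.63 for each). Neither gene had H3K27ac at its ends in any list. For H3K9ac, 14 were higher and 6 lower, with a median of 317 bp beside 480 bp over all genes, and per Mb covered 9 were higher and 11 lower. All Fast lists exceeded all Fed lists in 1 of the 20, against 3.48% of all genes (0.251% had the reverse). It was Foxa2, a transcription factor gene, with 0 to 2387 bp in Fed and 2695 to 4288 bp in the Fast ones. Its exact permutation p of 0.056 (adjusted p = 0.87) was reached by 5.81% of genes. No gene of these 20 was marked at an end in all 4 lists of one feeding state and none of the other.

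The genes on other chromosomes whose H3K27ac length, as a share of the list total, went most like that of Hcar2 over the 8 lists were Arl8b, Aadacl4fm4 and Epha10 (Pearson r 0.95, 0.94 and 0.94). For Bdh1 they were Vcl, Gm34593 and Wwc2 (0.98, 0.97 and 0.97), and for Bdh2 R3hcc1l, Heatr4 and Gm34768 (0.98, 0.95 and 0.95). Disc1, Slc25a21 and Spats2 came closest to Acat1 (0.96, 0.96 and 0.95), Ccnb1, Pdcd2 and Cnbp to Oxct1 (0.99, 0.98 and 0.97), and 3110009E18Rik, Chrna1 and Dpp7 to Slc16a1 (0.96, 0.96 and 0.94). These are the highest of the values of all genes on 8 points that share libraries, and describe only these lists.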

How the data were processed

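The 16 deposited lists give each peak's position, a name that starts with MACS, and a score with no stated unit; per the file headers and names there is no read total, and the data are called downsampled. The score is the authors' own value and was used only to rank peaks within a list. Per the submitters' processing notes the build was mm10 and FastQC, Bowtie and SAMtools were used; the caller's version and cutoff are not given in the sources used here.

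The titles name mouse IgG for H3K27ac samples and rabbit IgG for H3K9ac samples and do not say in what role. No IgG data were used here. Peaks on chromosomes 1 to 19, X and Y were used. Genes and promoters came from RefSeq for GRCm38.p6, whose gene table gives neither exons nor strand, so exonic and intronic positions are not stated. For every protein-coding gene, the length covered by peaks was summed over the gene body plus 50 kb each side. Fed and Fast labels were permuted within tetracycline states (36 arrangements), and tetracycline labels within feeding states, with Benjamini-Hochberg adjustment over 21887 genes. Interaction p-values came from the same permutation of Fed and Fast labels within tetracycline states. They thus measure against no feeding difference in either state, not against equal differences in both. Peaks of a mark sharing 1 bp were merged into regions. Named regions were those at gene ends, the one away from them held by most lists, and up to 3 per mark confined to one feeding state. All members were named, and other pathway genes whose lists did not overlap. One item of the marker lists is not reported here. The permutation code was checked on simulated lists with planted shifts far larger than any member's difference. That check does not measure the power of the test in these data. The alternatives are given in the closing section. The counts of higher and lower genes per Mb covered were added after seeing the data. The members and lists were chosen with earlier results of these data known. Python 3.11.15, numpy 2.4.6, pandas 2.3.3 and matplotlib 3.10.9 were used.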

Additional observations from a re-analysis of the deposited data

Results flagged for a closer look

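The length covered by H3K9ac peaks in the Bdh2 window was lower in both Fast than in both Fed lists without tetracycline and higher in both with it, a difference between the states of 1700 bp. Seen the other way, both lists with tetracycline were lower in fed and higher in fasted mice, which is the same 1700 bp. The exact permutation p of this interaction was 0.056, the smallest possible, and its adjusted p was 1. The share of all genes reaching that p is not given here. The interaction was picked out as the lowest p of the 12 tested for the members over both marks. When all lists were limited to their 17249 highest-scoring peaks it was 400 bp (exact permutation p = 0.50). No single H3K9ac region of this window was in more than 2 lists.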

How the results depend on the processing

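Values are in bp of covered length, higher in Fast or with tetracycline where positive. No result could pass 0.05 in any setting, so none gained or lost a call. The Hcar2 H3K27ac fasting difference kept its sign throughout, at 1357 to 1819.5 bp when a list or a list number was left out. Every Fast list of Hcar2 exceeded every Fed list, so leaving lists out could not turn that sign and is no test. The H3K27ac fasting differences of Bdh1 (1265 to 4882.5), Bdh2 (876.5 to 2268.5) and Acat1 (80.5 to 1828.5) kept their sign as well. Most H3K9ac differences turned sign in some setting; the cause was not tested. With pairs of the same list number as a replicate block (exact sign flips, smallest p 0.125), the Hcar2 H3K27ac difference is 1588 bp by construction, since the pairs are balanced, and no call could be made.

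When lists were limited to equal numbers of highest-scoring peaks, fasting differences were -1191 for Slc16a1 in H3K27ac and, in H3K9ac, -1450 for Bdh1, -107 for Bdh2, -65.2 for Acat1, -997 for Slc16a1 and -560 for Hcar2. Tetracycline differences were 162 for Bdh1, 56.2 for Acat1 and 1115 for Oxct1 in H3K27ac, and -437 for Bdh1 and -211 for Oxct1 in H3K9ac. Interactions were 536 for Bdh1 and 348 for Oxct1 in H3K27ac, and -146 for Oxct1 and 1075 for Hcar2 in H3K9ac. Gene ends, in percentage points Fast minus Fed, were -25 for Acat1 and -50 for Oxct1 in H3K27ac and -100 for Oxct1 in H3K9ac. H3K27ac regions in one feeding state numbered 2 in Fast and 1 in Fed without tetracycline and 1 in Fed with it. H3K9ac regions numbered 47, with 0 in Fast alone with tetracycline and 3 in Fed alone without.

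With the upper 0.5 of each list by score, H3K9ac fasting differences were -881 for Bdh1, -227 for Acat1, -296 for Slc16a1 and -255.5 for Hcar2. Tetracycline differences were 976.5 for Oxct1 in H3K27ac, and -1190.5 for Bdh1 and -115.5 for Hcar2 in H3K9ac. Interactions were 354.5 for Bdh2 and 234 for Acat1 in H3K27ac, and -762.5 for Oxct1 and 168 for Hcar2 in H3K9ac. Gene ends were 75 for Bdh1, 25 for Acat1, -50 for Oxct1, -25 for Slc16a1 and 75 for Hcar2 in H3K27ac and -100 for Oxct1 in H3K9ac. H3K27ac regions numbered 44, with 1 in Fast alone with tetracycline and 0 in Fed alone without. H3K9ac regions numbered 68, with 0 in Fast alone and 2 in Fed alone with tetracycline.

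Per Mb covered in the list, fasting differences were -61.5 for Slc16a1 in H3K27ac and, in H3K9ac, -24.3 for Bdh1, -13.6 for Acat1, -20.6 for Slc16a1 and -20.1 for Hcar2. H3K27ac tetracycline differences were 13.8 for Bdh1, 1.11 for Acat1, 10.6 for Oxct1 and 10.3 for Slc16a1, and interactions 0.772 for Bdh2, 2.75 for Acat1 and 6.26 for Hcar2. In the gene body with 1 kb each side, fasting differences were 127 for Oxct1 in H3K27ac and -101.5 for Bdh1 and 165.5 for Oxct1 in H3K9ac, and H3K27ac tetracycline differences 190 for Oxct1 and 1.5 for Hcar2. With a 10 kb flank, H3K9ac gave 91 for Oxct1 and -64.2 for Hcar2 on fasting and 115.5 for Slc16a1 on tetracycline. A 2.5 kb end window gave Bdh2 25 percentage points in H3K27ac, and bridging gaps of 500 bp left 0 H3K9ac regions in Fed alone without tetracycline.

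With a list or a list number left out, H3K27ac fasting differences ran from -2628 to 339.5 for Oxct1 and -1472.5 to 3381 for Slc16a1. H3K9ac ones ran from -955.5 to 2003.5 for Bdh1, -329 to 1460 for Acat1, -2683.5 to 1891 for Oxct1, -1466.5 to 3602 for Slc16a1 and -1801 to 2007.5 for Hcar2. Tetracycline differences in H3K27ac ran from -2141 to 722 for Bdh1, -910.5 to 144 for Acat1, -1248 to 939 for Oxct1 and -4420 to 434 for Slc16a1. In H3K9ac they ran from -676 to 1028.5 for Bdh1, -286.5 to 666.5 for Bdh2, -1611 to 178 for Acat1, -1543 to 1426 for Slc16a1 and -788 to 1161 for Hcar2. H3K27ac interactions ran from -1821 to 1353 for Bdh2, -1665 to 561 for Acat1, -3744 to 1543 for Oxct1, -9666 to 41 for Slc16a1 and -1339 to 950 for Hcar2. H3K9ac interactions ran from -3729 to 5793 for Acat1, -1242 to 1949 for Oxct1, -494 to 5443 for Slc16a1 and -2362.5 to 646 for Hcar2.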
